A study of Mus musculus with 6 samples.

Results

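MicroRNA genes with known roles in the formation of adipocytes were examined in mouse 3T3-L1 cells on day 7 of adipogenesis. A microRNA gene was included when a transcript cluster of the array (1 probe set, 1 value per array) carried its symbol and no other gene's. Of 45 listed microRNA genes, 37 had such a cluster of their own, out of 922 microRNA genes and 65956 transcript clusters measured. The clusters of Mir145a and Mir193a carried 2 spellings of their symbol. The other 8 listed genes were read only by 5 clusters that also cover another gene, and these are described separately.

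In shSTOM-1 cells, 3T3-L1 fibroblasts carried a lentivirus with an shRNA against stomatin (Stom), 1 of the shRNAs used in the study. Control cells carried the lentiviral vector. Both groups were selected with 3 µg/mL puromycin for 3 days and induced with IBMX, dexamethasone and insulin, and each was measured on 3 arrays labelled clones 1 to 3. The sources do not state that the clones were separate cultures, and p-values then cover the scatter among these arrays alone, which could be technical. All values are log2 array signals, and a fold change is shSTOM-1 over Control.

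Stom itself read 10.57, 10.60 and 10.67 in shSTOM-1 clones, against 13.17, 13.03 and 13.26 in Control clones. The targeted gene was thus lower in the cells labelled as its knockdown. The study saw stomatin protein increase during adipogenesis. The parts of the shRNA and of the state of the cells in this value were not tested. The mean signal over 11 adipocyte markers was 10.53 to 10.94 in shSTOM-1 clones and 14.21 to 14.30 in Control clones, and 10 of the 11 were lower, Lep being the exception. All 5 preadipocyte and fibroblast markers measured were higher, with mean signals of 15.00 to 15.02 in shSTOM-1 clones and 12.81 to 12.95 in Control clones. The part of this difference in cell state in the values below was not tested. In such bulk samples, fewer cells of a type and less RNA per cell cannot be told apart.

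A microRNA is cut from a longer transcript, first by Drosha in the nucleus and then by Dicer in the cytoplasm, and the mature strand guides an Argonaute protein to messenger RNAs that pair with its seed, bases 2 to 8. During adipogenesis some microRNAs hold back the regulator PPARγ (miR-27 and miR-130), whereas others, such as miR-143, rise as fat cells form. Several lie inside genes of lipid or coenzyme A metabolism and are transcribed with them. The array carries probes against genomic transcripts, so the values below describe transcripts of microRNA genes and not mature microRNAs.

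Mature sequences of microRNAs whose genes differed are shown here, other than those of Mir378a and Mir143, because they group the genes by seed, given in capitals (RefSeq, GRCm38.p6, whose sequences covered 40 of the 45 listed genes). The first set belongs to genes higher in shSTOM-1 cells, and miR-34b is added as a gene with the miR-34a seed that was not called.
miR-199a-3p: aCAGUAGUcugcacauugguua
miR-125b-5p: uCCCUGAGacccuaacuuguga
miR-34a-5p: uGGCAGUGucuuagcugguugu
miR-34b-5p: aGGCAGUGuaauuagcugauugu
miR-221-3p: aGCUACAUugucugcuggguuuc
miR-222-3p: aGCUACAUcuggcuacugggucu
miR-27a-3p: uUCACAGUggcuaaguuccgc
miR-23a-3p: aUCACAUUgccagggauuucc
miR-24-3p: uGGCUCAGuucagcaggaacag
miR-29a-3p: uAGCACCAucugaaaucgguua
miR-29b-3p: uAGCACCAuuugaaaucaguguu
miR-130a-3p: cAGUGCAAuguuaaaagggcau

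The second set belongs to genes lower in shSTOM-1 cells, with miR-193b added as the partner of miR-193a with the same seed.
miR-103-3p: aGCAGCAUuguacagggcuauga
miR-107-3p: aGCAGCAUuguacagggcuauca
miR-30c-5p: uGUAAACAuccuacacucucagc
miR-193a-3p: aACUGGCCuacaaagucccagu
miR-193b-3p: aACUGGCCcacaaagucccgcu
miR-365-3p: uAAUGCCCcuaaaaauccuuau
miR-196a-5p: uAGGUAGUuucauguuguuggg

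At an adjusted p under 0.05, 13 of the 37 genes were higher in shSTOM-1 cells, 7 were lower and 17 were not called. This was 54.1% of the listed genes, against 16.4% of the other 885 microRNA genes (10.4% higher, 5.99% lower) and 26.3% of all 65956 clusters (14.5% higher, 11.7% lower). The list was chosen with earlier results of these data known, and some listed genes lie side by side. These shares and those below are therefore a description. Among genes with at least 1 group mean at or above 5.1, the median of all values, 12 of 28 listed genes were higher and 7 lower, and 24.0% of 496 other microRNA genes were called. The other microRNA genes include copies with equal mean signal and change, such as many Mir669a genes, and each copy was counted. The groups did not overlap in 22 of the 37 genes, against 25.0% of the other microRNA genes and 37.4% of all clusters. The median fold change over the 37 genes was -0.03 on the log2 scale, beside 0.02 for other microRNA genes and 0.01 for all clusters, while the median size of the change was 0.43, beside 0.13 and 0.12. At the threshold of the study's methods, an adjusted p under 0.001 with at least 3-fold change, Mir125b-1 and Mir199a-1 were higher and Mir378a was lower, where 2.77% of all clusters were called. The study applied this threshold to coding probe sets only, whereas p-values here were adjusted over all 65956 clusters.

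**Figure D1:**
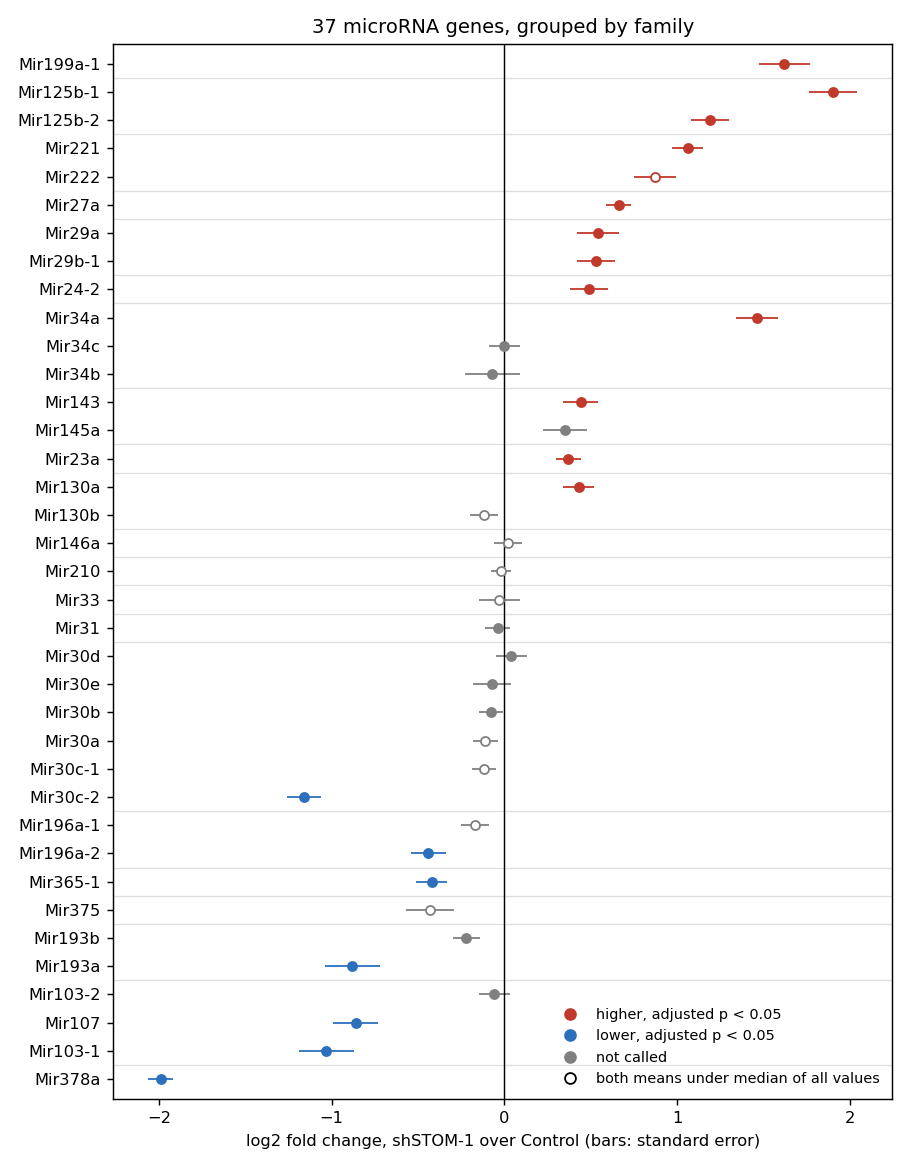
Log2 fold change of each of 37 microRNA genes (shSTOM-1 over Control, x axis) with its standard error from limma, grouped by family between the grey lines. Red marks 13 genes higher, blue 7 lower and grey 17 not called, and open symbols mark 9 genes whose group means both lay under 5.1.

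Of the 13 genes that were higher, Mir125b-1 and Mir199a-1 rose most. Mir199a-1 (miR-199a-3p at chr9:21496498-21496519, minus strand, within Dnm2 on the opposite strand) makes a microRNA of mesenchymal cells and fibroblasts. It read 9.27, 9.65 and 9.54 in shSTOM-1 clones, against 8.18, 7.67 and 7.74 in Control clones, a log2 fold change of 1.62 ± 0.15 (SE, n = 3 each, adjusted p = 8.23e-05), or 3.08-fold. Every shSTOM-1 clone lay above every Control clone. Dnm2 on the other strand changed by 0.51 ± 0.09 (adjusted p = 0.0031). The strand that the labelled target represents was not given in the sources used here.

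Mir125b-1 and Mir125b-2 encode the same mature microRNA on chr9:41581940-41581961 and chr16:77646279-77646300, both on the plus strand. Mir125b-1 read 8.19, 7.89 and 8.0 in shSTOM-1 clones, against 6.43, 5.91 and 6.05 in Control clones (1.90 ± 0.14, adjusted p = 2.08e-05, 3.72-fold). Mir125b-2 read 7.60, 7.67 and 7.90 in shSTOM-1 clones, against 6.72, 6.49 and 6.38 in Control clones (1.19 ± 0.11, adjusted p = 8.72e-05). Groups were separate for both genes. Each lies beside a let-7 gene and a gene of the family of miR-99 and miR-100, and these neighbours were higher too: Mir100 by 0.77 ± 0.08 and Mirlet7a-2 by 0.32 ± 0.09 at the first site, Mir99a by 1.58 ± 0.20 and Mirlet7c-1 by 1.19 ± 0.13 at the second (adjusted p of 0.00014, 0.0304, 0.000462 and 0.000174 in that order). Mirlet7a-2 lost its call without shSTOM-1 clone 1 (0.25, adjusted p = 0.0918), Control clone 2 (0.26, 0.0995) or Control clone 3 (0.33, 0.0714).

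The miR-34 genes split. Mir34a (chr4:150068473-150068494, plus strand) is a target of p53 whose microRNA represses Fgfr1, Klb, Sirt1 and Nampt in fat and liver. It read 7.14, 7.08 and 7.0 in shSTOM-1 clones, against 5.50, 5.90 and 5.43 in Control clones (1.46 ± 0.12, adjusted p = 4.48e-05, 2.76-fold), with no overlap. Mir34b and Mir34c, next to each other on another chromosome, changed by -0.07 ± 0.16 and 0.00 ± 0.09 (adjusted p of 0.842 and 1), and in both the groups overlapped. No test compared the 3 genes with one another.

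Mir221 and Mir222, neighbours on chrX:19146307-19146329 and chrX:19146901-19146923 (minus strand), share a seed and repress the cell cycle inhibitor Cdkn1b. Mir221 read 6.72, 6.65 and 6.86 in shSTOM-1 clones, against 5.51, 5.76 and 5.77 in Control clones (1.06 ± 0.09, adjusted p = 6.17e-05). Mir222 read 4.61, 4.52 and 4.83 in shSTOM-1 clones, against 3.99, 3.70 and 3.65 in Control clones (0.87 ± 0.12, adjusted p = 0.000635). Both pairs of groups were separate, though all 6 values of Mir222 lay under 5.1.

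Mir23a, Mir27a and Mir24-2 lie within 1 cluster on chromosome 8, and miR-27 is known as an inhibitor of adipogenesis that acts on Pparg. Mir27a (chr8:84208727-84208747, plus strand) read 8.31, 8.37 and 8.35 in shSTOM-1 clones, against 7.59, 7.80 and 7.65 in Control clones (0.66 ± 0.07, adjusted p = 0.000224). Mir23a read 7.55, 7.56 and 7.62 in shSTOM-1 clones, against 7.12, 7.17 and 7.33 in Control clones (0.37 ± 0.07, adjusted p = 0.00623). Mir24-2 read 6.79, 6.46 and 6.78 in shSTOM-1 clones, against 6.10, 6.09 and 6.36 in Control clones (0.49 ± 0.11, adjusted p = 0.0134). The 3 genes were each separate between groups. Mir24-2 lost its call without shSTOM-1 clone 3 (0.44, adjusted p = 0.0512), Control clone 1 (0.45, 0.0501) or Control clone 2 (0.45, 0.051). Mir3074-2, a neighbour that was not listed, changed by 0.03 ± 0.09 (adjusted p = 0.885). The neighbours Mir181c and Mir181d changed by 0.21 ± 0.14 and 0.11 ± 0.10 (adjusted p of 0.364 and 0.556). Mir181c was called without Control clone 2 (0.39, adjusted p = 0.0115). Mir3074-1, beside Mir23b, Mir27b and Mir24-1, was higher by 0.46 ± 0.12 (adjusted p = 0.0189). Its call was lost without shSTOM-1 clone 1 (0.38, adjusted p = 0.0615).

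Mir29a and Mir29b-1, adjacent on chromosome 6 (chr6:31062673-31062694 and chr6:31063025-31063047, minus strand), share the miR-29 seed and repress collagen messages. Mir29a read 7.52, 7.62 and 7.51 in shSTOM-1 clones, against 6.74, 7.26 and 7.03 in Control clones (0.54 ± 0.12, adjusted p = 0.0126). Mir29b-1 read 6.65, 6.74 and 6.74 in shSTOM-1 clones, against 6.04, 6.42 and 6.08 in Control clones (0.53 ± 0.11, adjusted p = 0.006). In both genes Control clone 2 was the highest control and stayed below every shSTOM-1 clone.

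Mir130a (chr2:84741116-84741137, minus strand) makes a microRNA that represses Pparg in preadipocytes. It read 7.51, 7.60 and 7.64 in shSTOM-1 clones, against 7.16, 7.30 and 6.99 in Control clones, without overlap (0.43 ± 0.09, adjusted p = 0.00744). Its relative Mir130b, with the same seed, changed by -0.12 ± 0.08 (adjusted p = 0.354) at values under 5.1. Mir143, whose microRNA rises in adipogenesis and acts on Mapk7 in human preadipocytes, read 7.60, 7.52 and 7.77 in shSTOM-1 clones, against 7.01, 7.29 and 7.28 in Control clones, again without overlap (0.44 ± 0.10, adjusted p = 0.0132). Its neighbour Mir145a read 11.82, 12.25 and 12.12 in shSTOM-1 clones, against 11.63, 11.91 and 11.60 in Control clones. These overlapped, and Mir145a was not called (0.35 ± 0.13, adjusted p = 0.088), but was called without shSTOM-1 clone 1 (0.47, adjusted p = 0.0218) or Control clone 2 (0.45, adjusted p = 0.0461). Both microRNAs are known from smooth muscle, and of 3 smooth muscle markers Acta2 was higher by 3.73, Myh11 lower by 1.06 on the log2 scale and Tagln not called, with mean signals of 8.46 to 8.53 in shSTOM-1 clones and 7.53 to 7.54 in Control clones. Their part in the values of Mir143 and Mir145a was not tested.

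**Figure D2:**
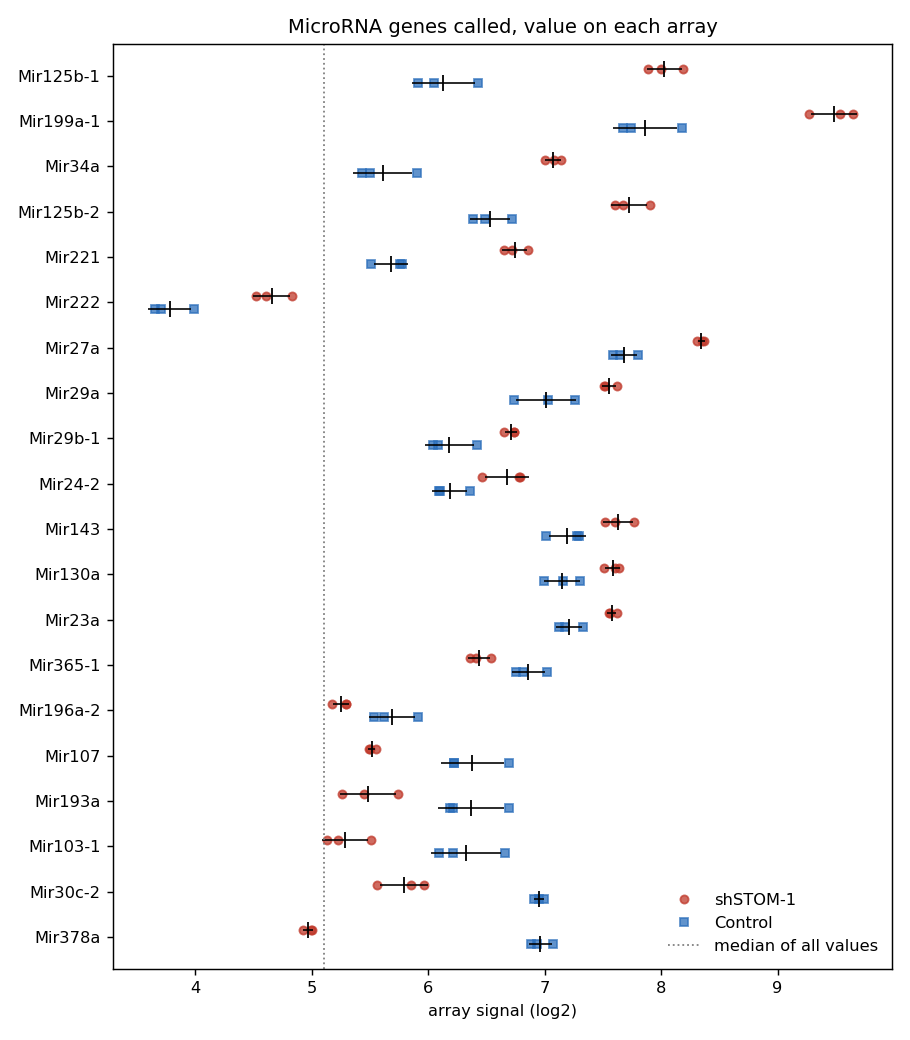
Log2 array signal (x axis) of the 20 microRNA genes called, with 1 point per array, shSTOM-1 (red circles) above Control (blue squares). Vertical ticks mark group means, bars 1 SD (n = 3) and the dotted line the median of all values, 5.1. The groups are separate in all 20, from Mir125b-1 (1.90) to Mir378a (-1.99).

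Of the 7 genes that were lower, Mir378a fell most. Its microRNA lies in Ppargc1b, the gene of the coactivator PGC-1β, and is induced as adipocytes form. Mir378a read 4.92, 4.99 and 5.00 in shSTOM-1 clones, against 6.88, 6.93 and 7.07 in Control clones. The groups lay far apart (-1.99 ± 0.07, adjusted p = 4.95e-07, 3.97-fold lower), and all shSTOM-1 values were under 5.1.

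Mir103-1, Mir103-2 and Mir107 lie in the pantothenate kinase genes Pank3, Pank2 and Pank1, and miR-103 and miR-107 act on caveolin-1 (Cav1) and insulin sensitivity in fat. Mir103-1 (chr11:35782447-35782469, plus strand) read 5.13, 5.22 and 5.51 in shSTOM-1 clones, against 6.21, 6.66 and 6.09 in Control clones (-1.03 ± 0.16, adjusted p = 0.00152). Mir107 (chr19:34820700-34820722, minus strand) read 5.49, 5.50 and 5.55 in shSTOM-1 clones, against 6.22, 6.69 and 6.22 in Control clones (-0.86 ± 0.13, adjusted p = 0.00113). Control clone 2 was the highest in both, and neither gene's groups overlapped. Mir103-2 (chr2:131288103-131288125, plus strand) read 6.54, 6.59 and 6.48 in shSTOM-1 clones, against 6.59, 6.75 and 6.45 in Control clones. Its groups overlapped (-0.06 ± 0.09, adjusted p = 0.71).

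Among 6 miR-30 genes, a family that favours adipogenesis in human stem cells, only Mir30c-2 (chr1:23291714-23291736, plus strand) was called. It read 5.96, 5.56 and 5.85 in shSTOM-1 clones, against 6.91, 6.95 and 6.99 in Control clones, with no overlap (-1.16 ± 0.10, adjusted p = 6.55e-05). Mir30d, Mir30e, Mir30b, Mir30a and Mir30c-1 changed by 0.04, -0.07, -0.08, -0.11 and -0.12, with adjusted p of 0.301 to 0.797, and each had overlapping groups. Mir30a, on the same chromosome as Mir30c-2 and within 60 kb of it, had values of 3.70 to 3.86 in shSTOM-1 clones and 3.81 to 3.91 in Control clones. The values of Mir30a and Mir30c-1 were all under 5.1.

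The miR-193 and miR-365 genes sit in pairs, and the miR-193b and miR-365 pair has been reported as needed for brown adipocytes to form from cultured mouse cells. Mir193a (chr11:79712009-79712030, plus strand) read 5.45, 5.26 and 5.74 in shSTOM-1 clones, against 6.21, 6.69 and 6.19 in Control clones (-0.88 ± 0.16, adjusted p = 0.00427). Beside it, Mir365-2 read 7.02, 7.49 and 7.49 in shSTOM-1 clones, against 8.70, 8.86 and 8.69 in Control clones (-1.42 ± 0.13, adjusted p = 8.2e-05). In the other pair, Mir365-1 (chr16:13453895-13453916, plus strand) read 6.54, 6.41 and 6.36 in shSTOM-1 clones, against 6.75, 7.02 and 6.81 in Control clones (-0.42 ± 0.09, adjusted p = 0.00846). These 3 genes had separate groups. Mir193b also had separate groups, at 6.52, 6.56 and 6.39 in shSTOM-1 clones and 6.83, 6.68 and 6.61 in Control clones, but was not called (-0.22 ± 0.08, adjusted p = 0.0968).

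Mir196a-2 (chr15:102973365-102973386, plus strand), whose microRNA represses Hoxc8 during browning of white fat, read 5.17, 5.29 and 5.29 in shSTOM-1 clones, against 5.62, 5.91 and 5.53 in Control clones. The groups were separate (-0.44 ± 0.10, adjusted p = 0.0146), and without shSTOM-1 clone 1 the call was lost (-0.40, adjusted p = 0.0533). Mir196a-1 changed by -0.17 ± 0.08 (adjusted p = 0.172). Mir375, best known from pancreatic islets, read 4.73, 4.47 and 4.78 in shSTOM-1 clones, against 4.93, 5.39 and 4.95 in Control clones, separate but not called (-0.43 ± 0.14, adjusted p = 0.0567). Mir146a, Mir210, Mir33 and Mir31 changed by 0.02, -0.02, -0.03 and -0.04, with adjusted p of 0.748 to 0.916 and overlapping groups. They belong to inflammation, the response to low oxygen, sterol transport and the control of Cebpa. All but Mir31 had group means under 5.1. Mir146b, a gene outside the list, averaged 8.06 in shSTOM-1 clones and 8.63 in Control clones, with separate groups (-0.57 ± 0.13, adjusted p = 0.0141). Its call was lost without shSTOM-1 clone 1 (-0.53, adjusted p = 0.0514) or shSTOM-1 clone 2 (-0.53, 0.0513).

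A host was taken as a gene whose RefSeq span holds the microRNA gene and which is not known to lie on the opposite strand. For 13 of the 37 genes such a host had a cluster of its own, and for Mir378a, Mir143 and Mir145a among them the strand was not compared. Of the 10 hosts, 3 were higher, 5 lower and 2 not called, where 38.3% of protein-coding genes and 26.3% of all clusters were called. The difference between the change of the microRNA gene and that of its host was tested over all 518 such pairs on the array, of which 38.4% differed, and 8 of these 13 did. The largest host changes went with the same direction in the microRNA gene at a smaller size. Ppargc1b read 7.13, 6.99 and 7.09 in shSTOM-1 clones, against 10.00, 9.99 and 10.07 in Control clones (-2.95 ± 0.07, adjusted p = 1.64e-07), and Mir378a fell less, with a microRNA gene minus host difference of 0.96 ± 0.11 (adjusted p over pairs = 2.7e-05). Since the Mir378a values in shSTOM-1 clones lay under 5.1, this difference may hold a limit of low signals, which was not tested.

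Pank3 read 14.64, 14.73 and 14.81 in shSTOM-1 clones, against 17.15, 17.06 and 16.95 in Control clones, and Pank1 read 6.64, 6.35 and 6.71 in shSTOM-1 clones, against 8.93, 8.90 and 8.85 in Control clones. Both changed by -2.33 (SE 0.08 and 0.10). Pank2 read 11.31, 11.30 and 11.26 in shSTOM-1 clones, against 11.80, 11.84 and 11.69 in Control clones (-0.49 ± 0.07, adjusted p = 0.000733). The microRNA gene minus host difference was 1.29 ± 0.15 for Mir103-1 (adjusted p over pairs = 2.09e-05), 1.46 ± 0.15 for Mir107 (7.77e-06) and 0.43 ± 0.11 for Mir103-2 (0.00891). These differences set fold changes of different probe sets beside each other. In shSTOM-1 clones Mir103-1 and Mir107 averaged 5.29 and 5.51, close to 5.1, and the part of low signal in their smaller change was not tested.

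Mir100hg, the long non-coding host of Mir125b-1, read 7.19, 7.43 and 7.33 in shSTOM-1 clones, against 6.01, 5.94 and 6.05 in Control clones (1.32 ± 0.08, adjusted p = 6.31e-06). Mir125b-1 rose by 0.58 ± 0.16 more (adjusted p over pairs = 0.0141), a difference that was not called without Control clone 2 (0.50, adjusted p = 0.0655) or Control clone 3 (0.51, adjusted p = 0.0604). Mir100, a gene outside the list with the same host, rose less than Mir100hg, with a difference of -0.54 ± 0.12 (adjusted p over pairs = 0.00273).

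In 2 hosts the gene was higher and the microRNA inside it was not called. Srebf2, the master regulator of sterol synthesis and host of Mir33, read 11.13, 10.99 and 10.93 in shSTOM-1 clones, against 10.16, 10.10 and 10.24 in Control clones (0.85 ± 0.08, adjusted p = 6.73e-05), and Mir33 differed from it by -0.88 ± 0.15 (adjusted p over pairs = 0.000496). Hoatz, around Mir34b and Mir34c, read 6.15, 6.20 and 6.0 in shSTOM-1 clones, against 5.34, 5.63 and 5.29 in Control clones (0.70 ± 0.10, adjusted p = 0.00127). Mir34b and Mir34c differed from it by -0.76 ± 0.20 and -0.70 ± 0.13 (adjusted p over pairs of 0.00892 and 0.000781). All Mir33 values lay under 5.1.

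No difference from the host was called for Mir143 and Mir145a in Carmn (0.32 ± 0.13 and 0.23 ± 0.15, adjusted p of 0.0653 and 0.252), Mir30c-1 and Mir30e in Nfyc (0.12 ± 0.11 and 0.16 ± 0.13) or Mir130b in 2610318N02Rik (-0.10 ± 0.12). Carmn itself changed by 0.12 ± 0.06 (adjusted p = 0.252). Nfyc changed by -0.23 ± 0.06 (adjusted p = 0.0167). Its call was lost without shSTOM-1 clone 2 (-0.24, adjusted p = 0.05) or Control clone 2 (-0.23, 0.0501).

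**Figure D3:**
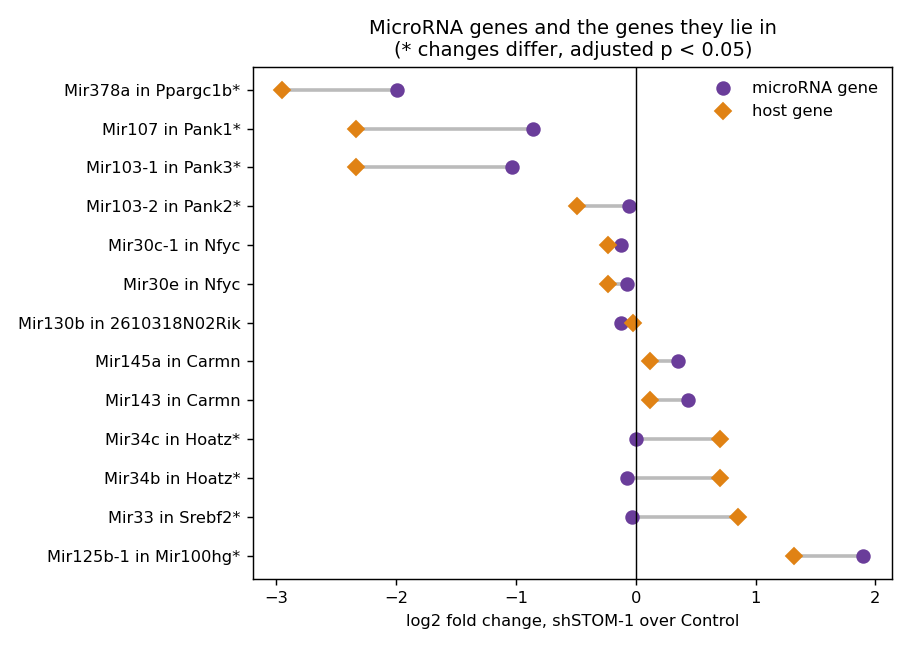
Log2 fold change (shSTOM-1 over Control, x axis) of 13 microRNA genes (purple circles) and the genes they lie in (orange diamonds), joined by a line. An asterisk marks the 8 pairs whose changes differed, such as Mir107 at -0.86 in Pank1 at -2.33. Mir33, Mir34b and Mir34c stay near 0 while their hosts lie at 0.70 to 0.85.

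Several mature microRNAs come from more than 1 gene, and the array read those genes separately. The difference in change between genes that share a mature sequence was tested over all 30 such pairs on the array, a comparison chosen after the values had been seen, and 26.7% of the 30 differed. The hairpins of Mir103-1 and Mir103-2, and of Mir30c-1 and Mir30c-2, are shown because their changes differed, with the longest shared run in capitals.
Mir103-1: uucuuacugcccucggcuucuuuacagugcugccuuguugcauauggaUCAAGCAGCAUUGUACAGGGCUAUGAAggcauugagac
Mir103-2: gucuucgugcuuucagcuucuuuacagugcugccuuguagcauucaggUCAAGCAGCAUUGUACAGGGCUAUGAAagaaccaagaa
Mir30c-1: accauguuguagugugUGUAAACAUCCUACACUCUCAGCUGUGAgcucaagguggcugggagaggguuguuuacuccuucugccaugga
Mir30c-2: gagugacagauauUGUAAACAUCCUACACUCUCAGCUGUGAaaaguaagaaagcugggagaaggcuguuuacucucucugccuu

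The shared run was 27 of 86 bases in each miR-103 hairpin (chr11:35782396-35782481 and chr2:131288052-131288137, plus strand), and 28 bases in the miR-30c hairpins, which are 89 and 84 bases long (chr4:120769534-120769622, minus strand, and chr1:23291701-23291784, plus strand). A short probe could lie in such a run and read both genes, and the probe sequences were not used here. The change of Mir103-1 minus that of Mir103-2 was -0.97 ± 0.15 (adjusted p over pairs = 0.00666). Mir30c-1 and Mir30c-2 differed by 1.04 ± 0.16 (0.00647). Both group means of Mir30c-1 lay under 5.1, so that its small change may be one of background signal, which was not tested. Mir365-1 and Mir365-2 both fell and differed by 0.99 ± 0.19 (0.0138). The call was lost without any single one of the 3 Control clones, at 0.96 to 1.02 (adjusted p of 0.0517 to 0.0545).

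Mir125b-1 and Mir125b-2 both rose and differed by 0.70 ± 0.16 (0.0234). That call was lost without shSTOM-1 clone 2 (0.74, adjusted p = 0.0549) or Control clone 1 (0.76, 0.0539). It was also lost without Control clone 2 (0.61, 0.0718) or Control clone 3 (0.74, 0.0657). For Mir196a-1 minus Mir196a-2 the difference was 0.26 ± 0.10 (adjusted p over pairs = 0.128). Mir199b, which shares the miR-199a-3p sequence, read 7.61, 8.46 and 8.04 in shSTOM-1 clones, against 6.39, 5.80 and 5.85 in Control clones (2.02 ± 0.23, adjusted p = 0.000258). Mir199a-1 minus Mir199b was -0.40 ± 0.13 (0.0801), called only without shSTOM-1 clone 1 (-0.51, 0.0336).

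**Figure D4:**
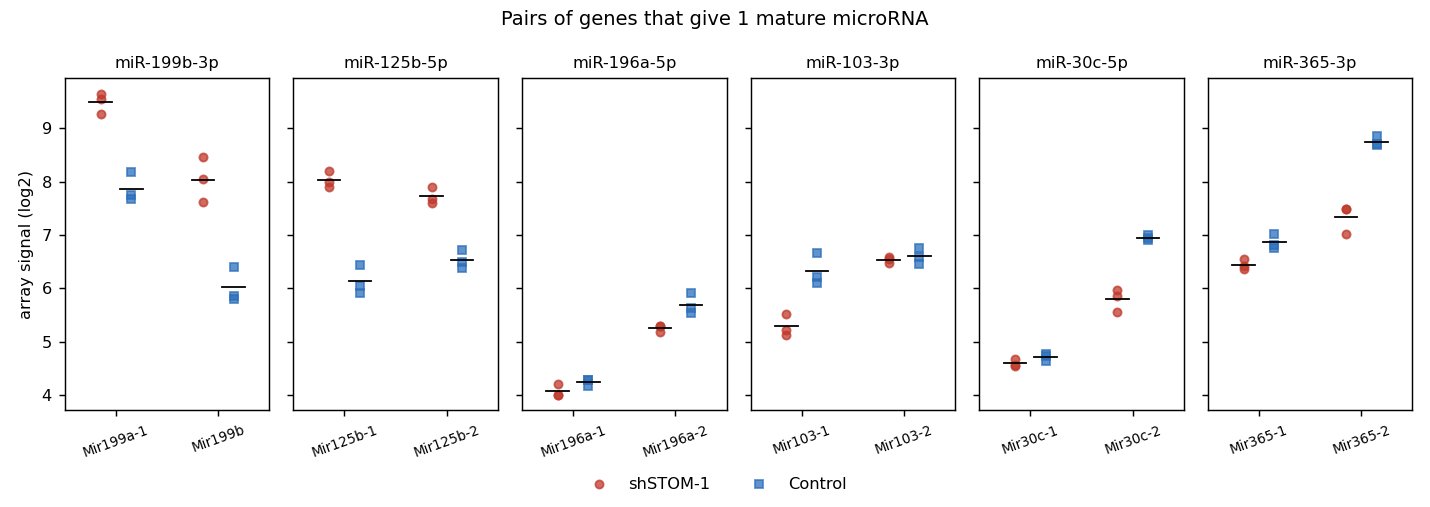
Log2 array signal (y axis) of 6 pairs of genes that give the same mature microRNA, shSTOM-1 (red circles) left of Control (blue squares), 1 point per array and a line at each mean (n = 3). Mir103-2 and Mir30c-1 have nearly equal group means while Mir103-1 (-1.03) and Mir30c-2 (-1.16) are lower in shSTOM-1.

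The 8 listed genes without a cluster of their own were read together with a longer transcript, so the signal cannot be given to the microRNA. The cluster of Dnm3os, the long non-coding source of miR-199a and miR-214, covers Mir214 and Mir199a-2 and read 12.32, 12.35 and 12.33 in shSTOM-1 clones, against 10.60, 10.31 and 10.30 in Control clones. Its groups were separate by a wide margin (1.93 ± 0.09, adjusted p = 1.64e-06, 3.81-fold), and with Mir199a-1 and Mir199b the clusters at all 3 genes with the miR-199a-3p sequence were higher. On the opposite strand, Dnm3 changed by 0.60 ± 0.07 (adjusted p = 0.000246).

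The cluster of Mir155 and Mir155hg, from which a microRNA against Cebpb is made, read 6.74, 6.79 and 7.07 in shSTOM-1 clones, against 6.37, 5.92 and 6.20 in Control clones (0.70 ± 0.13, adjusted p = 0.00444). The cluster of Mir22 and Mir22hg read 9.95, 10.37 and 10.28 in shSTOM-1 clones, against 10.89, 10.96 and 10.97 in Control clones (-0.74 ± 0.11, adjusted p = 0.00118). Neither overlapped between groups. The cluster of Aopep with Mir23b, Mir27b and Mir24-1 read 6.28, 6.28 and 6.46 in shSTOM-1 clones, against 5.92, 6.10 and 5.99 in Control clones. It changed by 0.34 ± 0.08 (adjusted p = 0.0149). Its call was lost without shSTOM-1 clone 3 (0.28, adjusted p = 0.0519) or Control clone 1 (0.30, 0.0557). The cluster of Vmp1 and Mir21a differed by 0.00 ± 0.06 (adjusted p = 0.983).

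**Figure D5:**
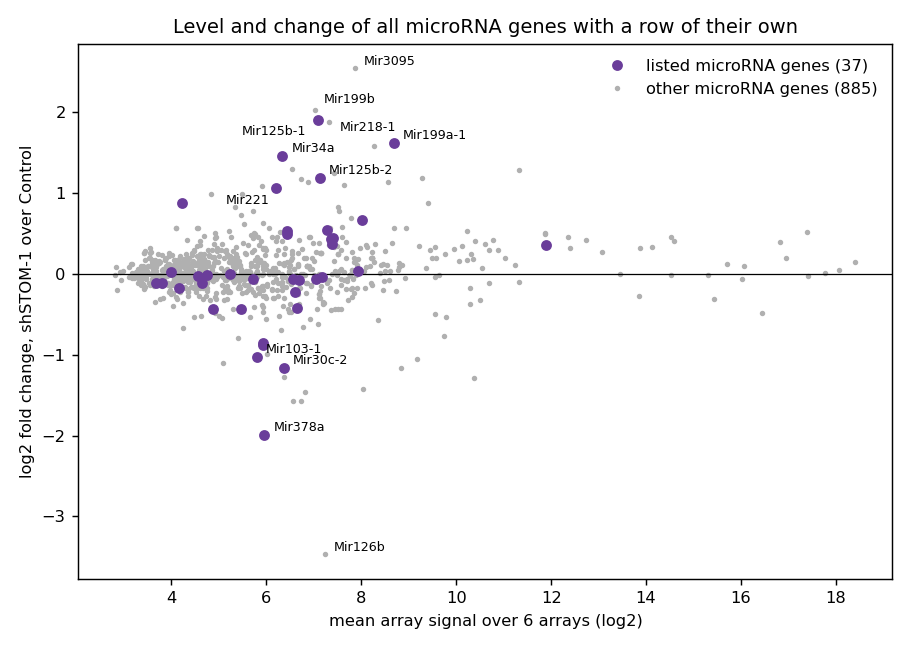
Mean log2 signal over 6 arrays (x axis) and log2 fold change, shSTOM-1 over Control (y axis), of 37 listed microRNA genes (purple) and 885 other microRNA genes (grey). The listed genes spread from -1.99 to 1.90, and a few other genes, such as Mir126b at -3.47 and Mir3095 at 2.54, lie beyond them.

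Of 22 measured genes that process or use microRNAs, 8 were higher, 3 lower and 11 not called, with a median log2 fold change of 0.08, where 38.3% of protein-coding genes were called and the median over all clusters was 0.01. Drosha, the nuclear enzyme, was higher by 0.53 ± 0.06 (adjusted p = 0.000226), whereas Dicer1 (-0.08 ± 0.06, adjusted p = 0.401) and the exporter Xpo5 (0.00 ± 0.06, adjusted p = 0.983) were not called. The Argonaute gene Ago2 was higher by 0.53 ± 0.06, Ago3 by 0.30 ± 0.07 and the Argonaute partner Tnrc6c by 0.87 ± 0.07, and the genes Tut4, Tut7 and Dis3l2, which tail and degrade precursors, were higher by 0.37, 0.32 and 0.42. Ran, which drives export, fell by 0.83 on the log2 scale (adjusted p = 1.94e-05), Ddx17 by 0.53 and Hsp90aa1 by 0.32. The genes of this list without a cluster of their own were Dgcr8, Ddx5 and Tnrc6b.

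Known messenger RNA targets of the listed microRNAs were set beside them as a description, since many are also adipocyte or fibroblast genes. Of 24 measured, 7 were higher, 11 lower and 6 not called (median -0.13), where 38.3% of protein-coding genes were called. Where Mir27a and Mir130a were higher, Pparg was lower by 3.61 ± 0.10 on the log2 scale, and beside the higher Mir34a, Klb and Nampt were lower by 5.47 and 2.09 while Sirt1 (-0.18, adjusted p = 0.0727) and Fgfr1 (-0.05, adjusted p = 0.61) were not called. The opposite arrangement also occurred: beside the higher miR-29 genes the collagen genes Col1a1, Col1a2 and Col3a1 were higher by 2.39, 1.93 and 2.25, beside Mir143 Mapk7 was higher by 1.07, and beside Mir221 and Mir222 Cdkn1b was higher by 1.08. Cav1 fell by 1.44 where Mir103-1 and Mir107 were lower, and Crat fell by 2.78 where Mir378a was lower. Med13, another target of miR-378a (-0.08, adjusted p = 0.452), and Eln, another of miR-29 (0.02, 0.857), were not called. The same held for Kit, of miR-221 and miR-222 (-0.01, 0.942), and Hoxc8, of miR-196a (0.13, 0.356), both with group means under 5.1. Abca1, a target of miR-33, whose gene was not called, fell by 3.73, and Runx1t1, a target of miR-193b, was higher by 2.85. Other called targets also stood beside microRNA genes or clusters that were not called. These were Cebpa of miR-31 (-4.33), Tgfbr2 of miR-21 (1.69) and Traf6 of miR-146a (-0.36). Nrip1, a target of miR-30, changed by -2.83 where Mir30c-2 was lower. Cebpb, a target of miR-155, changed by -0.45 where the cluster of Mir155 was higher. Iscu, a target of miR-210, fell by 0.26 (adjusted p = 0.0381). Leaving out any array other than shSTOM-1 clone 1 or Control clone 2 ended that call (-0.26 to -0.22, adjusted p of 0.0932 to 0.126).

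Control clone 2 was the highest of the 3 Control clones in 22 of the 37 genes and in 414 of all 922 microRNA genes. The mean over the 37 genes was 6.28 to 6.34 in shSTOM-1 clones, against 6.29 in Control clone 2 and 6.19 and 6.15 in Control clones 1 and 3. Its part in the results was not tested beyond the values without it given above.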

How the data were processed

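Total RNA (200 ng per array) was labelled and hybridised to Affymetrix mouse transcriptome arrays. Per the submitters' notes, scans went through the Transcriptome Analysis Console. The deposited values are log2 signals, 1 for each of 65956 transcript clusters. The sources used here name no background correction, normalization, build or detection call. Clusters were named through the array annotation and symbols updated through RefSeq (GRCm38.p6). Hosts were coding or long non-coding genes whose RefSeq span holds the microRNA gene, without those on the opposite strand where both strands were listed. Where a gene had several clusters, the one with the highest mean was used.

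A single model (limma 3.58.1, R 4.3.3; lmFit, then eBayes) covered all clusters, and p-values were adjusted by Benjamini-Hochberg over the whole table. Differences from hosts (518 pairs) and between genes with 1 mature sequence (30 pairs) were fitted likewise, each adjusted over its pairs. An exact permutation test of 3 against 3 arrays cannot go below 0.1 and was not used. Plots used matplotlib 3.10.9, and tables pandas 2.3.3 under Python 3.11.15. The fit was run on simulated data with independent noise and few changed clusters. Since many clusters were called here, that run does not show how the fit performs on these arrays.

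The genes and lists were chosen with earlier results of these data known. Values on each array were given for listed genes past an adjusted p of 0.05 without overlap, with their neighbours and hosts. Those given for Mir145a, Mir193b, Mir103-2 and Mir375, the change of Mir146b, and the neighbours and pairs shown, were chosen after their values were seen. The number of arrays limits the precision.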

Additional observations from a re-analysis of the deposited data

How the results depend on the processing

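Alternatives were quantile normalization, centring on the array median, leaving out dim clusters, trended and robust moderation, no moderation and 1-gene clusters only. Others were the mean of a gene's clusters, a block for the clone number and leaving out each array. Listed genes with equal values were also counted once. No direction reversed. Of the 20 called genes, 12 kept their call throughout and 8 lost it at least once. Without moderation, 8 listed genes were higher and 4 lower, Mir143, Mir24-2, Mir130a, Mir193a, Mir365-1, Mir196a-2, Mir29a and Mir29b-1 being lost, and 64 of all microRNA clusters were higher and 29 lower, against 118 and 63 with moderation. At the study's threshold 2 listed genes were higher and 1 lower. With 1-gene clusters only, which leaves 31297 of 65956 clusters, 5625 of all clusters were higher and 5789 lower, against 9580 and 7741 over the whole table. Mir222 has no value when dim clusters are left out.

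With 1 array left out, 12 to 14 listed genes were higher and 6 to 7 lower, 3 hosts were higher and 4 to 5 lower, 8 processing genes were higher and 3 lower, 7 targets were higher and 10 to 11 lower, and 7 to 8 host pairs differed. Among all microRNA clusters 96 to 112 were higher and 48 to 67 lower, and among all clusters 8286 to 8779 and 6786 to 7216. Deviations from the group mean over all clusters correlated weakly between clones with the same number (r of 0.032, 0.053 and -0.025). Between clones with different numbers r was -0.119 to 0.083. Such weak correlations, over many clusters of low signal, cannot tell whether the numbers pair the samples. With the clone number as a replicate block, 14 listed genes were higher and 7 lower, and 9335 of all clusters were higher and 7439 lower. Signals near the low end of the array limit what can be seen for the 9 genes under 5.1.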

Other observations

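Outside the listed genes, 4 of 885 other microRNA genes passed an adjusted p of 0.001 with at least 3-fold change, Mir199b (given above) among them. Mir126b read 5.45, 5.38 and 5.66 in shSTOM-1 clones, against 8.95, 9.12 and 8.84 in Control clones (-3.47, adjusted p = 2.35e-07, 11.1-fold lower). Its name resembles that of a microRNA of endothelial cells, and a link of its values to such cells was not tested. The 3 endothelial markers Pecam1, Cdh5 and Kdr were not called and averaged 4.48 to 4.53 in shSTOM-1 clones and 4.48 to 4.53 in Control clones, all 3 with group means under 5.1. Mir3095, in the lysophosphatidic acid receptor gene Lpar1, read 8.85, 9.28 and 9.25 in shSTOM-1 clones, against 6.47, 6.66 and 6.62 in Control clones (2.54, adjusted p = 1.82e-06, 5.83-fold). It rose by 1.49 ± 0.13 more than Lpar1 (adjusted p over pairs = 2.28e-06), which changed by 1.05. Mir218-1, in the guidance gene Slit2, read 8.10, 8.60 and 8.08 in shSTOM-1 clones, against 6.69, 6.25 and 6.19 in Control clones (1.88, adjusted p = 8.31e-05). Slit2 changed by 3.58, and the Mir218-1 minus Slit2 difference was -1.70 ± 0.14 (adjusted p over pairs = 1.11e-06). Mir218-2, which gives the same mature sequence, changed by 0.20, and Mir218-1 minus Mir218-2 was 1.68 ± 0.23 (adjusted p over pairs = 0.00647).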
